A study of Mus musculus with 12 samples.

Results

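The genes described here are 9 members of the actin cytoskeleton, *Tpm1*, *Tpm2*, *Tpm3*, *Tpm4*, *Actb*, *Actg1*, *Acta2*, *Tagln* and *Myl9*, of 55401 genes in the count table, of which 17728 had counts. They were taken by symbol, and the group was chosen by a measured value, the level of *Tpm1*, which was higher in every DM library than in every control library of oocytes from primordial follicles. The values of the 9 genes in that comparison are therefore given as a description with no test, and so are those of *Tpm1* in the comparisons of follicle stages, which use the same libraries.

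The libraries hold oocytes from female mice aged 7 to 8 days, C57Bl/6j x CBA/J in the labels and hybrids of C57BL/6JRj and CBA/JRj in the paper, in 4 groups of 3 libraries. In a culture of 5 days the ovaries received DMSO in the control groups and dorsomorphin in the DM groups, an inhibitor of the energy sensor AMPK, and oocytes were taken from primordial follicles, which are dormant, or from primary follicles, which have started to grow. The labels call the controls sham and the material in vivo, whereas the paper describes cultured ovaries, and the paper's account is used. Each library holds 200 pooled oocytes, cut by laser capture microdissection, on their appearance, from fixed and stained sections, and its RNA was amplified. The 3 libraries of a group are biologically independent in the figure legends. In bulk RNA fewer cells of a type and less RNA per cell cannot be told apart.

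Total counts ranged from 14034586 to 42639326 per library. Primary control 3 and primary DM 2 had the largest shares of counts in their 100 most abundant genes, 51.2% and 48.5%. Primary DM 3 came next at 43.7%, and the other libraries had 24.3% to 35.6%. Markers of oocytes summed to between 7.46 and 1427 CPM (counts scaled so that the genes of each library add up to the same total), below the stromal markers in 12 of 12 libraries and below the granulosa cell markers in 10 of 12. Of 9 smooth muscle and pericyte markers, *Cnn1*, *Des*, *Lmod1*, *Rgs5* and *Mcam* had at most 3 counts in every library.

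Actin monomers assemble into filaments that give a cell its shape and pull on its surroundings. Tropomyosins are rod-shaped proteins that lie along the filament and govern which myosins and severing factors reach it, and the 4 genes give many splice forms in muscle and in other cells. In the ovary, the state of actin is known to act on Hippo signalling, and free actin monomers hold back the co-activators of serum response factor (SRF), a transcription factor that binds the CArG box, CC, 6 bases of A or T, then GG.

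CArG boxes were searched on both strands in the 250 bases before each start site, because many contractile genes are SRF targets. RefSeq promoters (GRCm38) were held for 7 of the 9 genes and not for *Actb* and *Tagln*. A box stood in those of *Actg1* and *Myl9*, and none was found in those of *Tpm1*, *Tpm2*, *Tpm3* (with 2 promoters), *Tpm4* and *Acta2*. Both are shown, 5′ to 3′ on the strand of the gene, with the box in capitals, at chr11:120348551-120348610 (minus strand, 90 to 81 bases before the start) and chr2:156775278-156775337 (plus strand, 161 to 152 bases before the start).
*Actg1*: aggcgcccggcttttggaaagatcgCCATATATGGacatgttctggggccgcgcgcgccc
*Myl9*: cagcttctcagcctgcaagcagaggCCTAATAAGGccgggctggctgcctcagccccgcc
Of all 32851 promoter windows of this length, 1.47% held such a box. A match is a description of the letters and not a bound site. Only exact matches were searched, so a promoter listed without a box can still hold one with a changed base.

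The cytoplasmic actins are close in coding sequence, which can bear on how reads in their shared stretches were assigned. The coding sequences of *Actb* and *Actg1*, 1128 bases each, were identical at 88.7% of bases. Their longest shared run, 62 bases at coding bases 889 to 950 and in exon 5 of both, is shown because a read within it fits either gene (*Actb*, chr5:142904101-142904162, and *Actg1*, chr11:120346671-120346732, both minus strand, GRCm38).
*Actb* and *Actg1*: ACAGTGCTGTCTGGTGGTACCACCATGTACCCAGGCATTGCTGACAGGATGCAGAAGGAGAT
*Actb* and *Actg1* had 30 windows of 50 bases in common, of 2916 in the transcripts of *Actb* and 2927 in those of *Actg1*. Of the windows of 50 bases in the transcripts of *Actg1*, 37.4% also occurred in other annotated genes, mostly *Gm12715*. The share was 23.2% for *Tpm3*, all of it shared with *Tpm3-rs7*, 11.7% for *Tpm4*, 9.12% for *Actb* and 0.326% for *Acta2*, and 0% for *Tpm1*, *Tpm2*, *Tagln* and *Myl9*. Of the copies that carry the symbol of one of these genes, *Tpm3-rs7* had at most 704 counts in a library, *Actg-ps1* at most 27, and *Tpm3-rs2* had 0 in all 12. An exon of *Actg1* also holds *Gm23419*, a small RNA gene on the same strand, which had 69181 counts over all libraries. *Tagln* overlaps exons of *Pcsk7* and *Gm48529* on the opposite strand, and whether the counting used strand is not given in the sources used here.

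Per exon length (RPKM, the CPM of a gene over its exon length in kilobases), *Actb* had the highest level, with a median of 6680 RPKM over the 12 libraries, followed by *Actg1* (476), *Tpm1* (223), *Tpm4* (96.3), *Tpm3* (30.8), *Acta2* (11.3), *Myl9* (0.676), *Tagln* (0.0302) and *Tpm2* (0.00944). *Actb* was above *Actg1* in 12 of 12 libraries, *Actg1* above *Tpm1* in 10, *Tpm1* above *Tpm4* in 9 and *Tpm4* above *Tpm3* in 10. *Tpm3* and *Acta2*, and *Acta2* and *Myl9*, were each ordered this way in 6 of 12, so these neighbours did not separate. Lower in the order, *Myl9* was above *Tagln* in 11 and *Tagln* above *Tpm2* in 7.

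**Figure D1:**
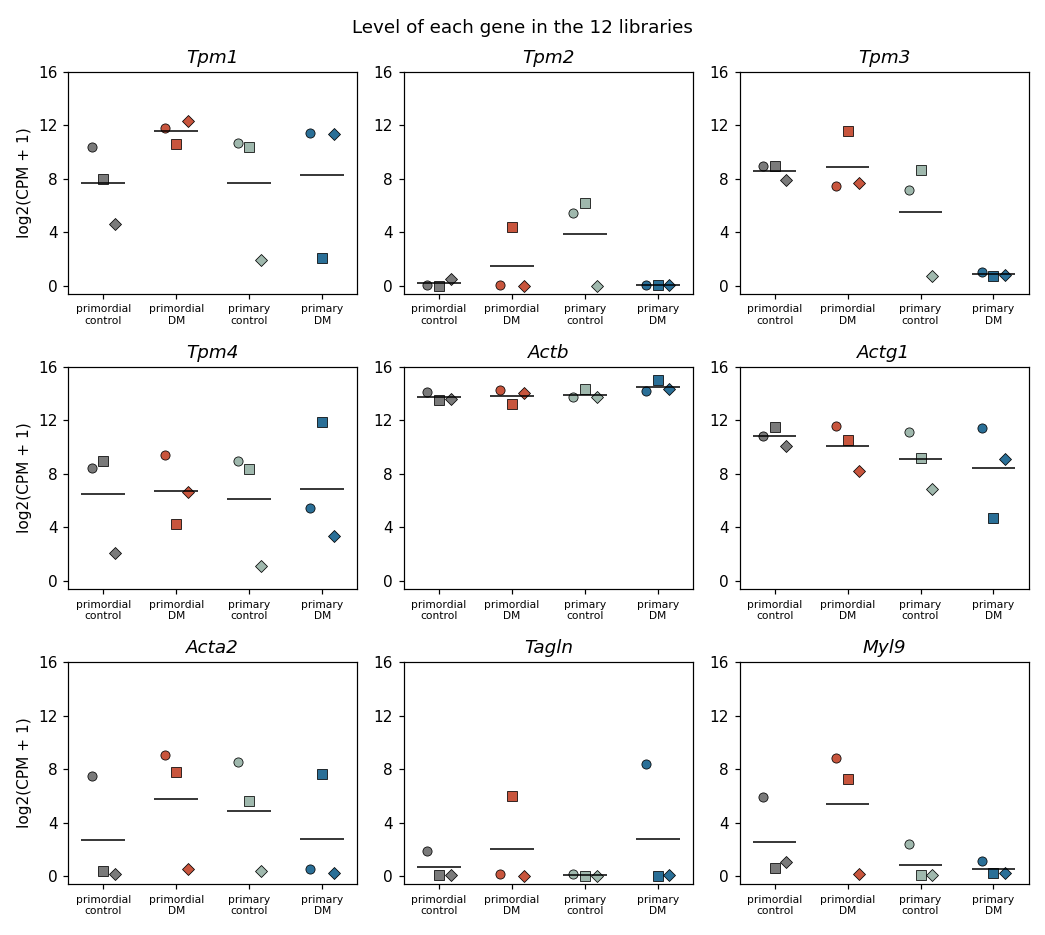
Level of each gene as log2(CPM + 1) by group, with circle, square and diamond for libraries 1, 2 and 3 and a line at the group mean. *Actb* lay between 9666 and 33005 CPM throughout, whereas *Tpm1* fell to 2.76 CPM in primary control 3 and 3.14 CPM in primary DM 2.

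*Tpm1* (ENSMUSG00000032366.15, chr9:67022590-67049406, minus strand, GRCm38) encodes the α-tropomyosin of muscle and its non-muscle forms. In oocytes from primordial follicles it measured 1317, 254 and 23.3 CPM in control 1, 2 and 3, and 3531, 1573 and 5092 CPM in DM 1, 2 and 3. The lowest DM library thus lay above the highest control library, by 1573 to 1317 CPM, and the controls differed among themselves by 56.4-fold. The mean was 531 ± 689.8 CPM (SD, n = 3) in controls and 3399 ± 1763 CPM after DM, and the fitted log2 fold change was 3.67 (SE 1.08). This is the pattern for which the gene was picked. Among the 9 genes it was the only one whose groups did not overlap there. Of the 6699 genes tested, 2.06% were higher in every DM library and 11% lower in every DM library, and nothing is read from that count. Beside it, the 5 surface epithelium markers summed to 209, 0.485 and 3.84 CPM in primordial control 1, 2 and 3. They summed to 1792, 16.8 and 763 CPM in primordial DM 1, 2 and 3. In primary follicles the sums were 7.89, 0.641 and 1.09 CPM in controls and 0.982, 682 and 8.92 CPM after DM, in the same order. Primary DM 2, the highest of these primary libraries, held *Tpm1* at 3.14 CPM. The stromal markers summed to 4642, 5490 and 4011 CPM in primordial control 1, 2 and 3, and 2679, 4902 and 4482 CPM after DM. For granulosa cell markers the sums were 2517, 1779 and 801 CPM and then 2083, 482 and 204 CPM, in the same order. For endothelium and blood markers they were 8.01, 0.108 and 0.0661 CPM and then 18.2, 609 and 0.190 CPM. The part of any of these cells in the *Tpm1* levels was not tested.

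In oocytes from primary follicles, *Tpm1* measured 1635, 1309.6 and 2.76 CPM in control 1, 2 and 3, and 2773, 3.14 and 2645 CPM in DM 1, 2 and 3. In each group 1 library was near 0 and the others were above 1000 CPM, so the groups overlapped through primary DM 2, while the other DM libraries were above every control. Its log2 fold change was 2.49 (SE 2.88, edgeR's quasi-likelihood test, adjusted p = 0.641). The low libraries were primary control 3 and primary DM 2, which had the largest shares of counts in their 100 most abundant genes. Primary DM 3, next in that share, held *Tpm1* at 2645 CPM. The part this share plays in the result was not tested. Without primary DM 2 the log2 fold change was 3.29, and over all 6 libraries left out in turn it ranged from 1.87 to 3.29. With library size alone as the scaling it was 0.78. Between stages, the log2 fold change of *Tpm1* was 1.17 in controls and 0.16 after DM, the latter -0.95 with library size alone. The difference of the DM effect between stages was not tested.

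By pattern across the 12 libraries, measured as the root mean square difference of centred log2(CPM + 1), the genes most like *Tpm1* among 4761 compared were *Ei24* (1.32), *Aplp2* (1.53) and *Rps3a1* (1.60), with a median of 4.005 over all and a value of 3.63 for a gene of constant level. Of the other 8 genes, *Actg1* was the closest to *Tpm1* (2.74) and *Acta2* the farthest (4.76). All points share their libraries and depth, so the likeness is a description.

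*Tpm3* (ENSMUSG00000027940.18, chr3:90072649-90100902, plus strand) gives a slow-muscle tropomyosin and widely expressed short forms. It measured 494, 507 and 241 CPM in primordial control 1, 2 and 3, and 171, 3016 and 203 CPM in primordial DM 1, 2 and 3. In primary follicles it measured 141, 404 and 0.675 CPM in control 1, 2 and 3. After DM it was at 1.02, 0.657 and 0.713 CPM, or 28, 28 and 25 counts. The primary DM libraries were thus all near 1 CPM and all below every primordial library.

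Primary DM libraries overlapped with primary control for *Tpm3*, because control 3 was as low as they were. The log2 fold change with DM in primary follicles was -5.88 (SE 3.52, edgeR, adjusted p = 0.408). Between stages after DM, *Tpm3* was lower in primary follicles with no overlap, the only such case of the 9 genes in that comparison, where 17% of the 4331 genes tested were likewise lower in every library. The log2 fold change was -8.94 (SE 3.89, edgeR, unadjusted p = 0.0248, adjusted p = 0.286). DESeq2 called this difference (-7.53, adjusted p = 0.00382), as it called 24.5% of the genes it tested there. Between stages in controls the log2 fold change was -1.35 (SE 2.37, edgeR, adjusted p = 0.968), and the groups overlapped.

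*Tpm4* (ENSMUSG00000031799.10, chr8:72134975-72153142, plus strand) encodes a tropomyosin of non-muscle cells. It measured 356, 501 and 3.31 CPM in primordial control 1, 2 and 3, and 677, 17.9 and 96.8 CPM in primordial DM 1, 2 and 3. In primary follicles it measured 509, 328 and 1.12 CPM in controls and 42.2, 3720.2 and 9.21 CPM after DM, in the same order. The highest and lowest library of a group differed by 37.8-fold or more in every group, and primary DM 2, where *Tpm1* was nearly absent, held the highest *Tpm4* level of all 12. With DM, its log2 fold change was 4.66 in primary follicles (SE 3.13, edgeR, adjusted p = 0.451) and turned to -1.90 without primary DM 2. In primordial follicles it was 0.20, and with library size alone as the scaling it was -0.13.

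*Tpm2* (ENSMUSG00000028464.16, chr4:43514711-43523765, minus strand), the β-tropomyosin of muscle, reached 1 CPM in 3 of 12 libraries and had at most 6 counts in the others. It had 1, 0 and 6 counts in primordial control, and 1, 691 and 0 in primordial DM. Primary controls held 1422, 997 and 0 counts, and the primary DM libraries held 1, 1 and 1. The 3 counts after DM against 2419 in controls put the summed level 1071-fold lower at these depths, with an exact 95% interval for counting error of 366 to 5197. That interval leaves out the spread between libraries, and control 3 at 0 lay with the DM libraries. Its fitted log2 fold change was -8.04 (SE 4.40, edgeR without the filter on low counts, which the gene did not pass, adjusted p = 0.347). A fitted value this close to 0 counts depends on the prior count of the fit.

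As shares of the family per length, *Tpm1* was the largest tropomyosin in 7 of 12 libraries, *Tpm4* in 3, *Tpm3* in 2 and *Tpm2* in 0. The share of *Tpm1* was from 8.03% to 45.5% in primordial controls and from 32.2% to 91.0% after DM. In primary controls it stayed between 40.7% and 48.4%, and after DM it was 95.7%, 0.0287% and 99.0% in library 1, 2 and 3. In primary DM 2, *Tpm4* took 99.96% of the family. The 3 primary controls were thus alike in this share although their *Tpm1* levels ran from 2.76 to 1635 CPM.

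**Figure D2:**
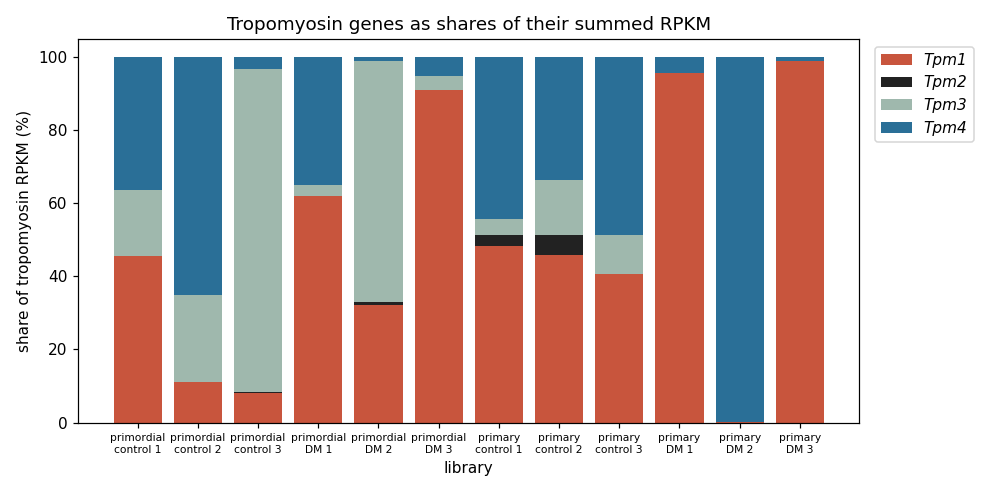
Each bar is 1 library and shows the 4 tropomyosin genes as percent of their summed RPKM. *Tpm1* held most of the bar in primary DM 1 and 3, *Tpm4* nearly all of it in primary DM 2, and *Tpm3* most of it in primordial control 3 and primordial DM 2.

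*Actb* (ENSMUSG00000029580.14, chr5:142903115-142906754, minus strand) encodes β-actin, a main component of the cytoskeleton that is often used as a reference. It measured 18382, 11554 and 12201 CPM in primordial control 1, 2 and 3, and 19658, 9666 and 17408 CPM in primordial DM 1, 2 and 3. Its levels in primary follicles were 13927, 20557 and 13642 CPM in controls and 18524, 33005 and 20575 CPM after DM. It was the most abundant gene in 10 of 12 libraries and took 79.5% to 99.2% of the RPKM of the 3 actins.

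The levels of *Actb* within a group lay closer together than those of any other gene with a mean of at least 100 CPM. The within-group SD of its log2(CPM + 1) was 0.43, where the median over the 2136 such genes was 3.40 and 0% had a smaller SD. On the same measure *Actg1* had 2.23, *Tpm3* 2.42, *Tpm4* 3.88, *Tpm1* 3.97 and *Acta2* 4.27. *Actg1* and *Tpm3* were below the median of these genes, and the other 3 were above it.

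**Figure D3:**
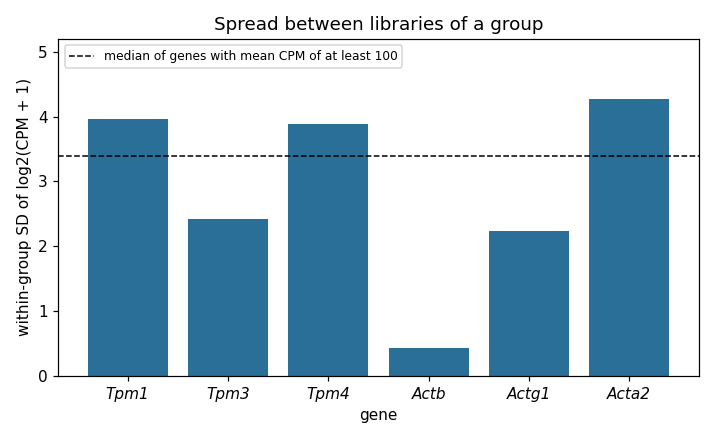
Bars give the SD of log2(CPM + 1) between libraries of a group, pooled over the 4 groups, for the 6 genes with a mean of at least 100 CPM, and the dashed line is the median of 2136 such genes. *Actb* stood at 0.43 and *Acta2* at 4.27.

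With DM, the log2 fold change of *Actb* was 0.74 (SE 0.41) in primordial and 1.37 (SE 1.91, edgeR, adjusted p = 0.704) in primary follicles. Between stages it was 1.34 in controls (SE 1.79, adjusted p = 0.941) and 2.27 after DM (SE 1.37, adjusted p = 0.346), both by edgeR. All 4 groups overlapped in CPM with the group they were compared with. The size of these values rests on the scaling. With library size alone, they were 0.13, 0.50, 0.17 and 0.56 in the order given.

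*Actg1* (ENSMUSG00000062825.15, chr11:120345690-120348542, minus strand) encodes γ-actin, the other cytoplasmic actin. It measured 1841, 2948 and 1073 CPM in primordial control 1, 2 and 3, and 3086, 1458 and 295 CPM in primordial DM 1, 2 and 3. Primary follicles gave 2269, 594 and 117 CPM in controls and 2843, 25.1 and 549.9 CPM after DM. It was detected in all 12 libraries, lowest in primary DM 2, where *Actb* was at its highest. The log2 fold change with DM was 0.04 in primordial follicles, or -0.29 with library size alone, and 1.23 in primary follicles (SE 2.90, edgeR, adjusted p = 0.832). Between stages it was -0.76 in controls (adjusted p = 0.986) and 0.46 after DM (adjusted p = 0.929) by edgeR. Both directions turned under other scalings.

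*Acta2* (ENSMUSG00000035783.9, chr19:34241090-34255590, minus strand) encodes the smooth muscle α-actin, a marker of theca, vessel walls and contractile stroma in the ovary. It measured 181, 0.270 and 0.132 CPM in primordial control 1, 2 and 3, and 525, 215 and 0.475 CPM in primordial DM 1, 2 and 3. The primary libraries gave 364, 49.0 and 0.289 CPM in controls and 0.436, 195 and 0.143 CPM after DM. Every group thus held at least 1 library below 1 CPM and at least 1 above 100 CPM. With DM, *Acta2* had a log2 fold change of 3.04 (SE 2.80) in the primordial stage and 1.36 in the primary stage (SE 3.15, edgeR, adjusted p = 0.832). The former was 10.29 without primordial control 1, and the latter was -7.34 without primary DM 2. Between stages it was 1.77 in controls (adjusted p = 0.957) and 0.29 after DM (adjusted p = 0.966) by edgeR.

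*Tagln* (ENSMUSG00000032085.5, chr9:45929619-45936058, minus strand) encodes transgelin, an actin-bundling protein of smooth muscle. It had 102, 2 and 1 counts in primordial control and 4, 2216 and 0 in primordial DM. Primary controls held 4, 0 and 0 counts, and the primary DM libraries held 8936, 1 and 1. A single library carried the gene in primordial DM and again in primary DM. The log2 fold change with DM in primary follicles was 12.23 (SE 4.87, edgeR without the filter, which the gene did not pass, unadjusted p = 0.0119, adjusted p = 0.347). A value against so few counts depends on the prior count of the fit.

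*Myl9* (ENSMUSG00000067818.6, chr2:156775420-156781658, plus strand) encodes a regulatory light chain of myosin II, whose phosphorylation turns on contraction. It measured 58.3, 0.512 and 1.06 CPM in primordial control 1, 2 and 3, and 456, 149.6 and 0.095 CPM in primordial DM 1, 2 and 3. Counts were 141, 1 and 1 in the primary controls and 33, 7 and 5 in the primary DM libraries. The gene was above 100 CPM only in primordial DM 1 and 2, the same libraries in which *Acta2* was above 100 CPM after DM in that stage. *Acta2* was also above 100 CPM in primordial control 1, primary control 1 and primary DM 2. There *Myl9* was at 58.3, 4.14 and 0.164 CPM. Between stages after DM the log2 fold change of *Myl9* was -7.51 (SE 3.75, edgeR, unadjusted p = 0.0494, adjusted p = 0.290). By DESeq2 it was -5.65 (adjusted p = 0.0498), and with genes at 0 in all 6 libraries left out of that tool's table the adjusted p was 0.0502. The groups overlapped through primordial DM 3. In primary follicles DM gave -0.01 (SE 3.18, edgeR without the filter, adjusted p = 0.998).

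Beside these 3 genes, the 9 smooth muscle and pericyte markers summed to 14.2, 99.3 and 0.463 CPM in primordial control 1, 2 and 3 and to 0.157, 66.9 and 0.0475 CPM in primordial DM 1, 2 and 3. In primary follicles they summed to 4.37, 49.0 and 8.55 CPM in controls and to 20.1, 11.1 and 98.5 CPM after DM. Primordial DM 1, with the highest *Acta2* and *Myl9* of all libraries, was among the lowest for these markers, at 0.157 CPM. Primordial DM 2, with *Acta2* at 215 CPM, *Myl9* at 149.6 CPM and *Tagln* at 2216 counts, was among the highest, at 66.9 CPM. The part of such cells in the results was not tested.

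Over the 9 genes, no adjusted p was under 0.05 by edgeR in any comparison that was tested, where 0% of all genes had one. With DM in primary follicles, 0 of the 6 that passed the filter on low counts had an unadjusted p under 0.05, against 12.2% of the 4181 genes tested. *Tagln* had one in the fit without the filter, to which the 12.2% does not apply. It rested on primary DM 1, at 8936 counts, where primary DM 2 and 3 had 1 each, and nothing is read from it. DESeq2, which gave an adjusted p for 6 of the 9 genes, called 0, against 22.1%. Between stages in controls 1 of 7 that passed, *Tpm1* aside, had an unadjusted p under 0.05, against 6.44% of 6726 genes. This was *Tpm2* (log2 fold change 7.91, SE 3.99, unadjusted p = 0.0474, adjusted p = 0.749, edgeR). It passed mainly through primary control 1 and 2, at 1422 and 997 counts, where primary control 3 had 0, and passed in no other comparison. Nothing is read from its place in this count. DESeq2 called 0 of the 7 it gave an adjusted p, against 5.72%. Between stages after DM 2 of 6 that passed, *Tpm1* aside (*Tpm3* and *Myl9*), had an unadjusted p under 0.05 by edgeR, against 17.2% of 4331 genes. DESeq2 called these 2 of the 5 it gave an adjusted p, against 24.5%, and with genes at 0 in all 6 libraries left out it called *Tpm3* alone. *Myl9* passed mainly through primordial DM 1 and 2, at 17424 and 5220 counts, where primordial DM 3 had 2. Nothing is read from its place in these counts. The fit passed 7 of 9 genes in primordial follicles, 6 in primary follicles, 8 between stages in controls and 7 after DM. In primordial follicles the log2 fold change was above 0 for 9 of 9, where 52% of all genes tested were above 0, in the comparison that chose them. The 52% covers genes that passed the filter, which *Tpm2* and *Tagln* did not. The sign of *Tpm4* and *Actg1* rests on the scaling, as given above, and *Tpm3* was -0.60 without primordial DM 2. The comparisons share libraries, so their values are not independent.

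**Figure D4:**
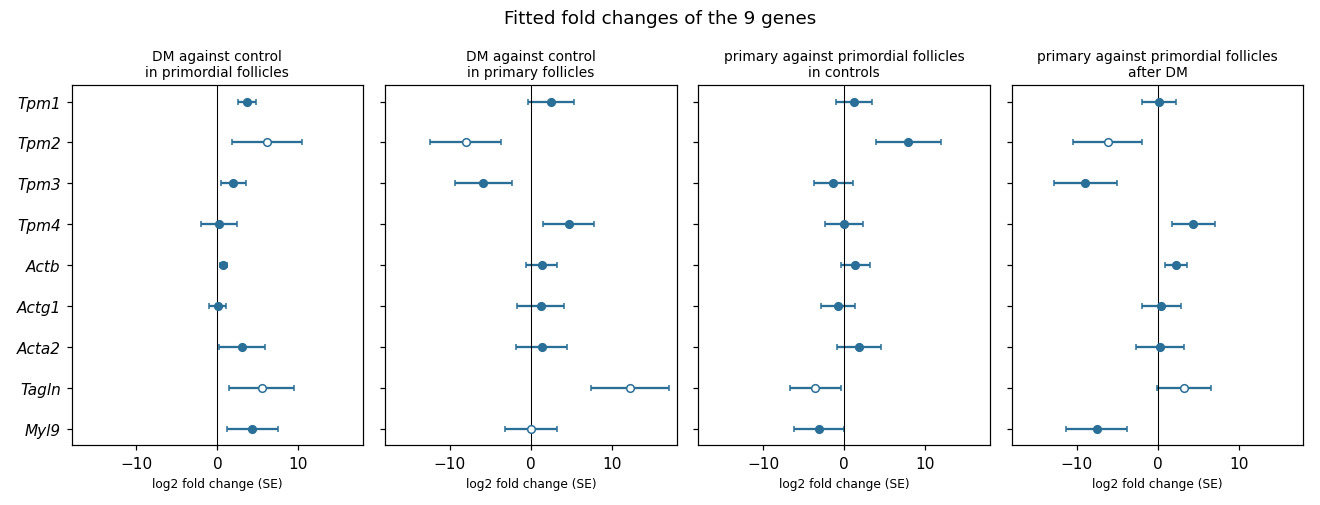
Points are the fitted log2 fold changes of the 9 genes and bars are 1 SE to each side, in the 4 comparisons of 3 libraries with 3. Open points mark genes that did not pass the filter on low counts. In the tested comparisons the widest bars belonged to *Tagln* and *Tpm2*, and *Tpm1* with DM in primordial follicles stood at 3.67 (SE 1.08).

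Over all genes compared for DM, log2 fold changes had a median SE of 2.84 in the primordial stage and 3.14 in the primary stage. The biological coefficient of variation was 1.76 and 1.86.

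Other genes of the actin machinery were taken as lists, of which 4 are described. Of 16 muscle contractile genes, 6 (*Actc1*, *Actg2*, *Cnn1*, *Lmod1*, *Synpo2* and *Des*) had no more than 3 counts in every library. The highest mean levels were those of *Vcl*, the adhesion protein vinculin, and *Flna*, an actin crosslinker. *Flna* was found between 22.1 and 924 CPM in the 12 libraries. With DM in primary follicles, 8 passed the filter and none was called by edgeR. At an unadjusted p under 0.05 by edgeR there were 0, against 12.2% of all genes tested, and DESeq2 called 0, against 22.1%. With so few genes, nothing is read from these counts. Their median log2 fold change was 1.49 against 0.31 over all genes.

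Of 11 non-muscle myosin genes, 9 passed in primary follicles, where edgeR called none, 0 had an unadjusted p under 0.05, DESeq2 called 3 higher and 1 lower with DM, and a median log2 fold change of 0.11 was found against 0.31 over all genes. Over all genes in that comparison 12.2% had such a p and DESeq2 called 22.1%. *Myh9*, its heavy chain A, ranged from 2.09 to 5704 CPM and *Myh10*, its heavy chain B, from 1.48 to 3911 CPM. The lowest value of each was in primary control 3. *Myl12a*, a close relative of *Myl9*, is named because it had the smallest p of the list with DM in primary follicles. It measured 54.9, 516 and 6.07 CPM in primary controls and 0.436, 0.164 and 0.342 CPM after DM, with no overlap. Its log2 fold change was -7.43 (SE 3.81, edgeR, unadjusted p = 0.0509, adjusted p = 0.396). In that comparison 11.8% of all genes were likewise lower in every DM library. *Myl12a* passed the filter mainly through the controls, and nothing is read from its lack of overlap.

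Of 31 genes of actin assembly, 21 passed the filter in primary follicles. None was called by edgeR, 0 were higher and 1 was lower at an unadjusted p under 0.05, DESeq2 called 4 higher and 0 lower, against 12.2% and 22.1% of all genes in either direction, and the median log2 fold change was 1.61 against 0.31 over all genes. That gene was *Daam1*, a formin that elongates filaments. It measured 235, 3.14 and 2501 CPM in primary controls and 0.3999, 0.375 and 0.171 CPM after DM. Its log2 fold change was -12.07 (SE 4.40, edgeR, adjusted p = 0.395). *Daam1* passed the filter mainly through the controls, and nothing is read from its place in that count. *Tmsb10*, which binds actin monomers, and *Pfn1*, profilin, were the most abundant and had adjusted p of 0.425 and 0.9504 by edgeR.

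Of 7 targets of YAP and SRF, 3 passed in primary follicles, and *Ankrd1* had no more than 3 counts in any library. *Amotl2*, which binds YAP, measured 0.558, 0.998 and 0.193 CPM in primary controls and 0.545, 2292 and 1.45 CPM after DM. A single library, primary DM 2, set its log2 fold change of 12.23 (SE 4.52, edgeR, unadjusted p = 0.00684, adjusted p = 0.395). *Ccn1* had more than 3 counts in 5 of 12 libraries and passed no filter.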

How the data were processed

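RNA of laser-captured oocytes was sequenced in 12 libraries. The authors trimmed reads with Trim Galore 0.4.1 and mapped them to mm10 (GRCm38). The paper names TopHat2, whereas the submitters' processing notes name STAR. The authors counted reads per gene with featureCounts and deposited raw counts, without normalization. The paper describes library preparation with both a TruSeq RNA Access kit and Smart-seq II. Of 55401 genes, 55141 were matched to a symbol. The 9 genes, the other lists and the tests were chosen with earlier results of these data known.

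Here, CPM and RPKM (merged exon length) were computed from the counts. Groups of 3 libraries were compared in R 4.3.3 with edgeR 4.0.16 (filterByExpr, TMM, quasi-likelihood test, Benjamini-Hochberg adjustment, threshold 0.05), and genes that failed the filter were fitted without it. SEs were derived from the fold change and the F statistic. Total counts were from 14034586 to 42639326, and a count of 0 allows up to 3 counts, which covers counting error only. No pair of libraries of a group agreed within sampling noise (smallest chi-square per degree of freedom 1611). Named genes were the 9, for each list the 2 with the highest mean CPM and the one with the smallest p in a tested comparison, the 3 most like *Tpm1*, and annotated copies, of which a selection is printed. The alternatives tried were another tool (DESeq2 1.42.0), other scalings in edgeR (size factors of DESeq2, TMMwsp, or library size alone), other filters (none, or 10 counts or more in every library), prior count 2, blocking on the replicate number, fitting all 12 libraries together, and leaving out each library. DESeq2 without genes at 0 in all 6 libraries was added after its counts had been seen. The result of 1 further gene list is not reported here. The code was tested on simulated data. Python 3.11.15, SciPy 1.17.1.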

Additional observations from a re-analysis of the deposited data

How the results depend on the processing

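The count of all genes with an adjusted p under 0.05 with DM in primordial follicles was 1, and it was 0 with DESeq2's size factors in edgeR, library size alone, no filter, 10 counts or more in every library, a replicate block and all 12 libraries in 1 fit, and between 0 and 3 with a library left out. DESeq2 gave 701 genes there, 725 with DM in primary follicles, 293 between stages in controls and 992 between stages after DM, where edgeR gave 0 in each of the last 3. With genes at 0 in all 6 libraries left out, a setting chosen after seeing the data, DESeq2 gave 690, 719, 290 and 990. Between stages in controls, edgeR gave 1 with library size alone, 4 with at least 10 counts in every library and 0 with a library left out. In primary follicles it gave 0 with a library left out, and between stages after DM from 0 to 4. The cause of these differences was not tested. The scaling moved the median log2 fold change of all genes from 0.13 to -0.43 (library size alone) or 0.56 (DESeq2's size factors) in primordial follicles, and from 0.31 to -0.96 or 2.04 in primary follicles.

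Of 492 fold changes of the 9 genes under these alternatives, 44 turned direction. Of these, 10 were with DM in primordial follicles (*Tpm3*, *Tpm4* and *Actg1*) and 10 with DM in primary follicles. Another 10 were between stages in controls and 14 between stages after DM (with *Tpm1* from -1.12 to 1.53). Of the 320 that had an adjusted p, 3 passed the threshold where the edgeR value had not, all 3 by DESeq2 (*Tpm3* and *Myl9* between stages after DM). With DM in primordial follicles and a library left out, *Tpm3* ranged from -0.60 to 2.54, *Tpm4* from -1.71 to 1.61, *Actg1* from -0.67 to 0.91 and *Acta2* from 2.06 to 10.29. With DM in primary follicles, *Acta2* was -1.21 with library size alone, and *Myl9* was 1.95 with DESeq2 in both forms and 0.092 with all 12 libraries in 1 fit. With a library left out, *Tpm4* ranged from -1.90 to 5.48, *Acta2* from -7.34 to 3.93, *Actg1* from -0.045 to 2.18 and *Myl9* from -0.73 to 0.38. Between stages in controls, *Tpm4* was 0.072 with TMMwsp, *Actg1* 0.21 with DESeq2's size factors and 0.41 with TMMwsp. With a library left out, *Tpm4* ranged from -1.15 to 1.20, *Acta2* from -1.08 to 9.26, *Actg1* from -1.87 to 0.15 and *Myl9* from -6.95 to 0.96. Between stages after DM, library size alone gave -2.04 for *Acta2* and -0.54 for *Actg1*. With a library left out, *Tpm4* ranged from -2.44 to 6.27, *Acta2* from -8.74 to 1.38 and *Actg1* from -1.02 to 1.23. Same-numbered libraries did not deviate together (correlations from -0.05 to 0.05), so the numbers were not taken to pair them. With the replicate block, *Acta2* was -1.72 with DM in primary follicles, *Tpm4* was 0.24 between stages in controls, and between stages after DM *Tpm4* was -1.03 and *Acta2* -1.07, and the block gave 0 called genes in all 4 comparisons. *Tpm1* with DM stayed above 0 under every alternative, lowest 2.65 and highest 4.91 in primordial follicles, lowest 0.78 and highest 4.92 in primary follicles. With a library left out the limits were 2.97 and 4.83, and 1.87 and 3.29. The comparison in primordial follicles chose the gene, so its sign there was largely fixed in advance and nothing is read from it. Amplified RNA of 200 oocytes and 3 libraries a group limit the precision.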
